A study of Homo sapiens with 8 samples.

Results

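The mRNAs of 10 serine/arginine-rich (SR) splicing factors, SRSF1, SRSF2, SRSF3, SRSF4, SRSF5, SRSF6, SRSF7, SRSF9, SRSF10 and SRSF11, were followed through 8 pull-down libraries of human leukaemia cells. They were chosen by gene symbol, and 10 of the 63140 genes in the count table are members. All 10 passed the filter on low counts. By their labels the cells were MOLM13 and OCI-AML4, established lines grown from acute myeloid leukaemia. Every library was collected on day 3 after editing. All cells had been nucleofected with a guide RNA and an editor. AAVS1 KO (labelled genotype WT) and HOTSCRAMBL KO received Cas9 ribonucleoprotein, which cuts DNA. AAVS1 CBE (labelled genotype WT) and HOTSCRAMBL CBE received a cytosine base editor, an enzyme fusion that changes C to T and leaves the double strand uncut. AAVS1 is the control site of each editor, and HOTSCRAMBL is a long non-coding RNA. Each of the 4 groups held 2 libraries, of which replicate 1 is labelled MOLM13 and replicate 2 OCI-AML4.

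RNA was recovered by ChIRP, in which fixed and sonicated lysate is hybridised with biotinylated probes and captured on streptavidin beads. The RNA that the probes target is not stated in the labels, and no input library was analysed here. Every value is thus an amount recovered by pull-down, given as CPM, counts scaled to a common library size, after TMM correction of that size. Such values do not separate a change in a cell's mRNA from a change in its recovery. Fewer cells of a type and less RNA per cell cannot be told apart in such bulk samples either. Whether the edited cells were a mixed population or a clone is not stated in the labels. The table has 0 genes named HOTSCRAMBL, so its editing could not be checked here.

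SR proteins carry RNA recognition motifs and a tail of arginine-serine repeats. They bind enhancer sequences in exons and help to bring the U1 particle and U2AF to the splice sites nearby. Kinases of the SRPK and CLK families phosphorylate the tail, and several members also pass mature mRNA to the export receptor NXF1. Many SR genes limit their own output through poison exons, whose inclusion sends the transcript to nonsense-mediated decay. SRSF2 is recurrently mutated in myeloid neoplasms.

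Total counts ran from 20548300 to 37970163 per library. The summed level of 14 markers of myeloid cells, 13 of which passed the filter, ran from 2759 to 3382 CPM of the library total. The 4 T-cell markers summed to at most 2.24 and the 4 erythroid markers to at most 0.225 in any library, with CD3E, CD2, HBB and HBA2 at 0 throughout. Markers of B cells, epithelium and fibroblasts, 4 each, summed to at most 11.003, 5.25 and 1.27. Between the line labels 119 of 24057 genes differed (0.495%), 0 of the 10 members among them, and no library of known line was at hand to check the labels. The composition of the libraries moved with the groups. The 13 protein-coding mitochondrial genes summed to between 34637 and 38481 CPM of the library total in the 4 AAVS1 libraries, 66565 and 70894 in HOTSCRAMBL KO, and 41145 and 44241 in HOTSCRAMBL CBE. A list of 10 abundant cytosolic mRNAs stood at 5118 to 6121 in the AAVS1 libraries, 11054 and 12890 in HOTSCRAMBL KO, and 10618 and 11581 in HOTSCRAMBL CBE. The part of this shift in the results on SR factors was not tested.

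The members differed widely in level. Per kilobase of annotated exon, SRSF11 stood highest in the 4 AAVS1 libraries, at 89.1 ± 6.42 CPM per kb (SD, n = 4), and SRSF1 lowest, at 6.51 ± 0.754 CPM per kb. Between them, in falling order, came SRSF7 at 51.1 ± 0.839, SRSF5 at 45.8 ± 1.75, SRSF4 at 37.2 ± 2.87, SRSF6 at 27.1 ± 1.12, SRSF3 at 21.3 ± 1.80, SRSF9 at 18.7 ± 2.72, SRSF10 at 11.1 ± 1.11 and SRSF2 at 9.78 ± 0.418 CPM per kb. The ranges of SRSF3 and SRSF9 overlapped, and so did those of SRSF10 and SRSF2, while the other neighbours in this order did not overlap. Over all 8 libraries the mean level per kb of the members lay between the 73.5th and the 98.6th percentile of the tested genes. In HOTSCRAMBL KO, SRSF6 at 36.6 ± 0.693 CPM per kb (SD, n = 2) took the third place, above SRSF5 at 30.8 ± 1.46 and SRSF4 at 29.8 ± 3.11. The plot of levels per exon length shows these shifts beside the group means of SRSF11 and SRSF7, which kept the top places, although SRSF7 at 54.1 passed SRSF11 at 54.0 CPM per kb in HOTSCRAMBL KO replicate 2.

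**Figure D1:**
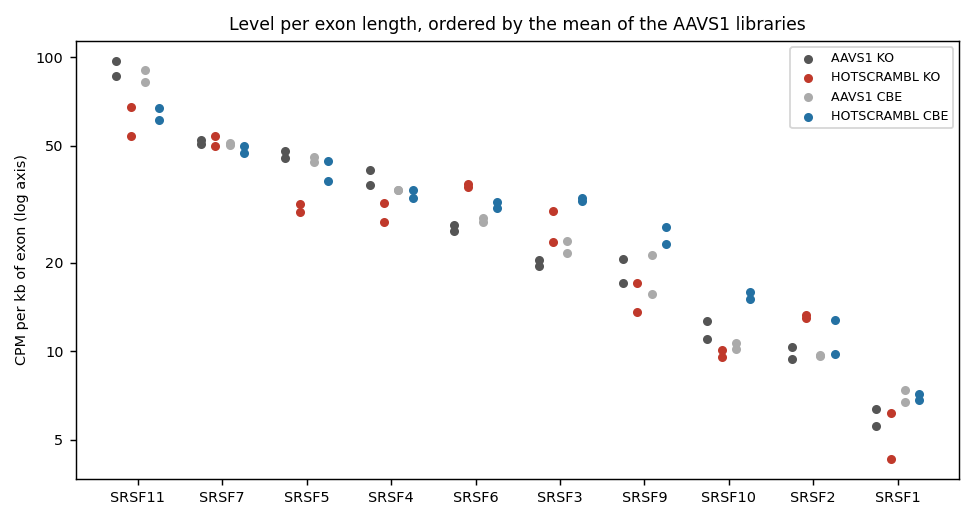
Level of each SR factor mRNA in CPM per kb of annotated exon (log axis), with 1 point per library and the 4 groups in separate colours, ordered by the mean of the AAVS1 libraries. By group mean SRSF11 is highest and SRSF1 lowest in every group, and SRSF6 stands above SRSF5 and SRSF4 in HOTSCRAMBL KO.

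With Cas9, 4 of the 10 members differed between HOTSCRAMBL KO and AAVS1 KO. SRSF11, SRSF5 and SRSF4 fell, with log2 fold changes of −0.60, −0.60 and −0.39, and SRSF6 rose by 0.48. Of all 24057 genes tested, 8.76% were called in this comparison by edgeR's quasi-likelihood test with Benjamini-Hochberg adjustment, and of the 5479 genes at least as abundant as the lowest member 26.4% were. The median log2 fold change of the members was −0.23, against −0.01 over all genes tested. With the base editor, 3 of the 10 members were called. SRSF10 and SRSF3 rose by 0.57 and 0.54, and SRSF11 had a log2 fold change of −0.42. The background there was 8.83% of all genes and 28.5% of those at least as abundant as the lowest member, and the medians were 0.08 for the members and −0.02 for all genes. The more abundant genes are the closer background for these counts, since a call is easier at a higher level. That cut is a floor and does not match levels. It lies at the mean of SRSF2, 32.7 CPM over all libraries, whereas the called members averaged from 141 (SRSF10) to 642 CPM (SRSF11). No share was computed at their level.

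Both comparisons called 1 member, SRSF11, and 4 members were called in neither. Fitted changes had the same sign with both editors for 7 members and opposite signs for 3. These comparisons share no library. The shares of all genes called with both editors, called with neither or alike in sign were not computed, so these counts are a description. The 2 groups did not overlap for 8 of the 10 members with Cas9, where 44.8% of all genes did not overlap. With the base editor it was 8 of 10, where the share was 46.4%. No such share was computed for genes of like abundance. With the base editor SRSF4 and SRSF2 were barely apart. Their nearest AAVS1 CBE and HOTSCRAMBL CBE libraries stood at 310.3 and 310.2 CPM for SRSF4 and at 29.0 and 29.2 CPM for SRSF2. The plot of levels by library shows both the separation of SRSF11 and the flat course of SRSF7.

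**Figure D2:**
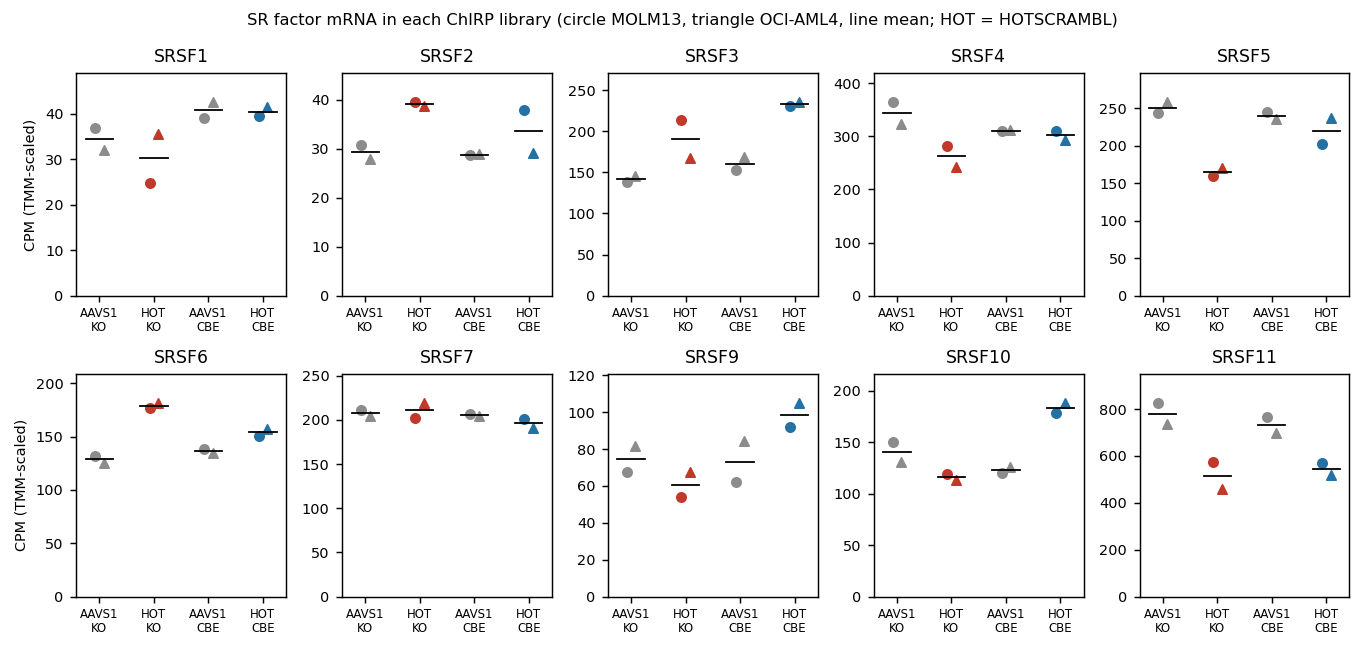
Level of each SR factor mRNA in CPM after TMM scaling, 1 panel per gene with its own axis from 0, with circles for libraries labelled MOLM13, triangles for OCI-AML4 and a line at the mean of 2. SRSF11 lies between 457 and 574 CPM in the 4 HOTSCRAMBL libraries and between 696 and 825 CPM in the 4 AAVS1 libraries.

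SRSF11 (ENSG00000116754, chromosome 1, 70205682 to 70253052, plus strand, GRCh38), an atypical SR protein also known as p54, carried the lower values with both editors. In the libraries labelled MOLM13 and OCI-AML4 it stood at 825 and 734 CPM in AAVS1 KO and at 574 and 457 CPM in HOTSCRAMBL KO. With the base editor it stood at 764 and 696 CPM in the control and at 569 and 520 CPM in HOTSCRAMBL CBE. All 4 HOTSCRAMBL libraries were below all 4 AAVS1 libraries. With KO its log2 fold change was −0.60 (SE 0.0936, edgeR adjusted p 5.65e-05). With CBE it came to −0.42 (SE 0.0916, edgeR adjusted p 0.00257). The difference between these effects was −0.18, with a 95% interval from −0.45 to 0.09 (edgeR adjusted p 0.598). Leaving out any of the 8 libraries kept the KO call, whereas the CBE call was lost without AAVS1 CBE replicate 1 (adjusted p 0.0563), AAVS1 CBE replicate 2 (0.0971) or HOTSCRAMBL CBE replicate 1 (0.112). No other annotated gene shares its exons.

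SRSF11 made up the largest part of the members' counts, with 36.5% ± 1.36 (SD, n = 2) of their sum in AAVS1 KO and 35.6% ± 1.92 in AAVS1 CBE. This share is not divided by exon length, which was 8.47 kb for SRSF11 and ran from 2.98 kb (SRSF2) to 11.86 kb (SRSF10). That share was 29.1% ± 2.90 in HOTSCRAMBL KO and 27.1% ± 1.58 in HOTSCRAMBL CBE. The 10 members together took 0.216% to 0.229% of all counts in the AAVS1 libraries, 0.157% and 0.176% in HOTSCRAMBL KO, and 0.191% and 0.193% in HOTSCRAMBL CBE. Averaged over both editors the fold change of SRSF11 was −0.51 on the log2 scale (SE 0.0655, edgeR adjusted p 2.00e-06).

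Promoters are shown for SRSF11, SRSF3, SRSF4 and SRSF6, the called members with a window clear of annotated exons. These members did not all move the same way, and no link between the letters and the changes was tested. Of the 10 members 9 matched the RefSeq table (GRCh38.p14). Each run covers the 240 bases from 250 to 11 before the start on the strand of the gene, 5′ to 3′, and capitals mark matches, on either strand, to the CCAAT box (CCAAT), the TATA box (TATAAA), the GC box (GGGCGG) or the E-box (CACGTG). No motif match overlaps another. The windows are chr1:70221130-70221369 for SRSF11 at the downstream of its 2 starts, chr6:36594112-36594351 for SRSF3, chr1:29181911-29182150 on the minus strand for SRSF4 and chr20:43457646-43457885 for SRSF6, the others being on the plus strand.
SRSF11: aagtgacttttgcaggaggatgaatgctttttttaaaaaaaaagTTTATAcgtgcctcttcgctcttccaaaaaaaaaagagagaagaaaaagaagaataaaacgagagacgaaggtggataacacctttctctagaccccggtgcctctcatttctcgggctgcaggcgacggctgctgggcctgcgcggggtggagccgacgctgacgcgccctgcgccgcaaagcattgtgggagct
SRSF3: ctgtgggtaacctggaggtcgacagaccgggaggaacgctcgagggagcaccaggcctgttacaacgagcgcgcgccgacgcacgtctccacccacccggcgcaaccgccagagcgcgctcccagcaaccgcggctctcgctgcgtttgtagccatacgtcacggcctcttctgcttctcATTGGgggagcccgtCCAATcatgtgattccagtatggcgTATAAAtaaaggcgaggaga
SRSF4: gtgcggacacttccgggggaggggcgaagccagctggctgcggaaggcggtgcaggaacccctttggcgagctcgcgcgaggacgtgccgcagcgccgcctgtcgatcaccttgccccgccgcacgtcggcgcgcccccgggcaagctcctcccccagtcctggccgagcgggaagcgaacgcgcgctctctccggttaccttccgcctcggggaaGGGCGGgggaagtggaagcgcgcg
SRSF6: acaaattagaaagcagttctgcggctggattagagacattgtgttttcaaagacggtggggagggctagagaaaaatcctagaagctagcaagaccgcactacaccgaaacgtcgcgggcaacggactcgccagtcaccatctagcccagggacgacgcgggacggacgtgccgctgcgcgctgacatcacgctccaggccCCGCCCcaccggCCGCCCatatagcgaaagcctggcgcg
The SRSF3 window holds a CCAAT box on each strand, whose first bases lie 70 and 55 bases before the start, and a TATA box beginning 30 bases before it. In the SRSF6 window the GC box occurs on the opposite strand in 2 places, 49 and 37 bases before the start. The SRSF4 window holds 1 GC box, 34 bases before the start. SRSF11 has a single TATA box match on the minus strand, 206 bases before that start. The windows of SRSF5 and SRSF10 and the upstream window of SRSF11, which overlap annotated exons, hold 0 matches. Among 35116 promoter windows of the same length, 31.4% hold a CCAAT box, 10.6% a TATA box, 41.4% a GC box and 6.01% an E-box.

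SRSF3 (ENSG00000112081, chromosome 6, 36594353 to 36605600), the smallest SR protein and an adaptor for NXF1-mediated export, was higher in every HOTSCRAMBL library than in its control group. It stood at 139 and 145 CPM in AAVS1 KO and at 214 and 168 CPM in HOTSCRAMBL KO. Its level was 153 and 168 CPM in AAVS1 CBE and 231 and 236 CPM in HOTSCRAMBL CBE. Groups were apart with both editors, and the 2 HOTSCRAMBL KO libraries were further from each other than those of the other groups. With CBE it rose by 0.54 on the log2 scale (SE 0.130, edgeR adjusted p 0.00705). With KO the log2 fold change was 0.42 (SE 0.140) and missed the threshold (edgeR adjusted p 0.0621, against 0.00752 in DESeq2 and 0.0499 in limma-voom), and the effects of the editors differed by −0.12 with a 95% interval from −0.51 to 0.28. On average over the editors it rose by 0.48 (SE 0.0956, edgeR adjusted p 7.71e-04).
The CBE call was lost when any of the 4 CBE libraries was left out, with edgeR adjusted p between 0.0538 (without AAVS1 CBE replicate 2) and 0.289 (without AAVS1 CBE replicate 1), and the average kept its call without each of the 8. The KO value rested on the HOTSCRAMBL KO libraries, at 0.19 without replicate 1 (edgeR adjusted p 0.679) and 0.62 without replicate 2 (edgeR adjusted p 0.0360), and was 0.26 without TMM scaling.

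SRSF7 (ENSG00000115875, chromosome 2, 38743599 to 38751494), which has a zinc knuckle and likewise serves as an export adaptor, was the flattest member. Its levels were 212 and 205 CPM in AAVS1 KO, 203 and 219 CPM in HOTSCRAMBL KO, 207 and 204 CPM in AAVS1 CBE, and 201 and 191 CPM in HOTSCRAMBL CBE. The KO groups overlapped, while both HOTSCRAMBL CBE libraries lay slightly below both of their controls. Its log2 fold change was 0.02 with KO (95% interval −0.23 to 0.27) and −0.06 with CBE (−0.31 to 0.18). The KO sign turned to −0.14 without TMM scaling and to −0.07 without HOTSCRAMBL KO replicate 2.

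SRSF4, SRSF5 and SRSF6, SR proteins of like build with a pair of RNA recognition motifs, parted ways with Cas9. SRSF5 (ENSG00000100650, chromosome 14, 69726900 to 69772005) stood at 243 and 258 CPM in AAVS1 KO and at 159 and 170 CPM in HOTSCRAMBL KO. With the base editor it stood at 245 and 235 CPM in the control and at 203 and 237 CPM in HOTSCRAMBL CBE, where the groups overlapped. The log2 fold change was −0.60 with KO (SE 0.125, edgeR adjusted p 0.00177) and −0.13 with CBE (SE 0.117, edgeR adjusted p 0.583). The CBE value ran from −0.033 without AAVS1 CBE replicate 1 to −0.23 without AAVS1 CBE replicate 2, with −0.035 and −0.23 without HOTSCRAMBL CBE replicates 1 and 2, and was −0.27 without TMM scaling. The difference between the editors of −0.47 did not pass over all genes in edgeR (adjusted p 0.163) and passed in DESeq2 (−0.44, adjusted p 0.0227). Without AAVS1 KO replicate 1 or replicate 2 the KO call was lost (adjusted p 0.0779 and 0.0685).

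SRSF4 (ENSG00000116350, chromosome 1, 29147743 to 29181900) stood at 364 and 324 CPM in AAVS1 KO and at 282 and 243 CPM in HOTSCRAMBL KO. Its 4 base editor libraries lay close together, at 310 and 312 CPM in the control and 310 and 293 CPM in HOTSCRAMBL CBE. With KO the log2 fold change was −0.39 (SE 0.111, edgeR adjusted p 0.0243), and with CBE it was −0.04 (SE 0.107). The KO call was lost in the model without the line label (edgeR adjusted p 0.0940) and when any library other than the HOTSCRAMBL CBE ones was left out, the highest adjusted p being 0.365 without AAVS1 KO replicate 1. The CBE sign turned to 0.03 without AAVS1 CBE replicate 2.

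SRSF6 (ENSG00000124193, chromosome 20, 43457893 to 43466046) moved the other way. It stood at 132 and 125 CPM in AAVS1 KO and at 176 and 181 CPM in HOTSCRAMBL KO. In AAVS1 CBE it was at 139 and 135 CPM and in HOTSCRAMBL CBE at 150 and 157 CPM, again apart but closer. It rose by 0.48 with KO (SE 0.136, edgeR adjusted p 0.0251), and the CBE log2 fold change was 0.17 (SE 0.130, edgeR adjusted p 0.516). The overlapping gene ENSG00000288000 shares 13.4% of its exon bases. The KO call was lost without the line label (edgeR adjusted p 0.0657), without TMM scaling (0.161) and when any of the 4 KO libraries was left out, up to an adjusted p of 0.250 without AAVS1 KO replicate 2.

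**Figure D3:**
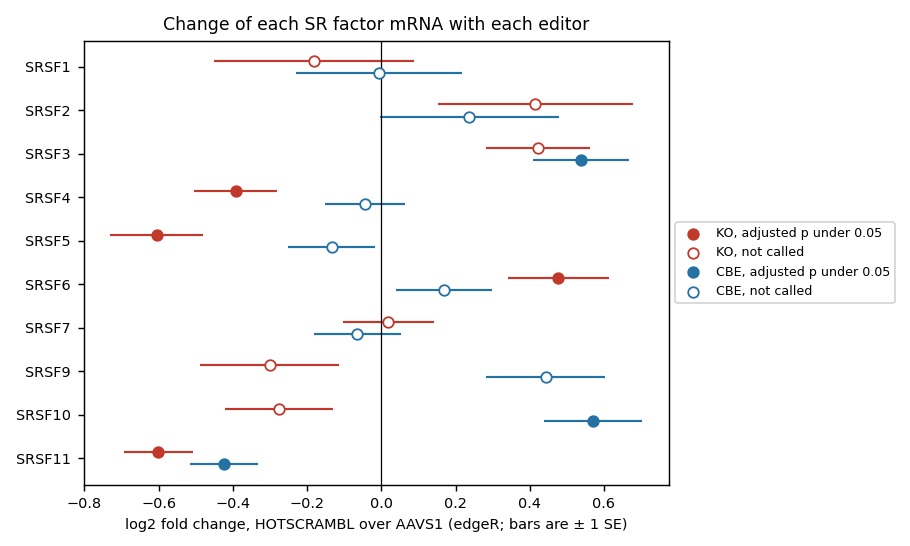
Fitted log2 fold change of each member, HOTSCRAMBL over AAVS1, with KO in red and CBE in blue, bars for 1 SE and filled points for an edgeR adjusted p under 0.05. SRSF11 is the single member with a filled point for both editors, and SRSF10 lies at −0.28 with KO and 0.57 with CBE.

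Ratios between members do not depend on how libraries are scaled, and 3 pairs were computed, chosen after values of the members were seen. Per kb, SRSF6 over SRSF5 was between 0.532 and 0.626 in the 4 AAVS1 libraries, 1.21 and 1.17 in HOTSCRAMBL KO, and 0.813 and 0.725 in HOTSCRAMBL CBE. SRSF3 over SRSF11 was between 0.200 and 0.288 in the AAVS1 libraries, 0.444 and 0.436 in HOTSCRAMBL KO, and 0.484 and 0.539 in HOTSCRAMBL CBE. In these ratios each HOTSCRAMBL library was above all 4 AAVS1 libraries. Each pair sets a member with positive fitted changes over one with negative fitted changes, so the separation restates those changes. The third, SRSF10 over SRSF9, did not separate, at 0.501 to 0.742 in the AAVS1 libraries, 0.738 and 0.561 in HOTSCRAMBL KO, and 0.649 and 0.599 in HOTSCRAMBL CBE. A ratio shows unequal change and does not say which of its members changed.

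**Figure D4:**
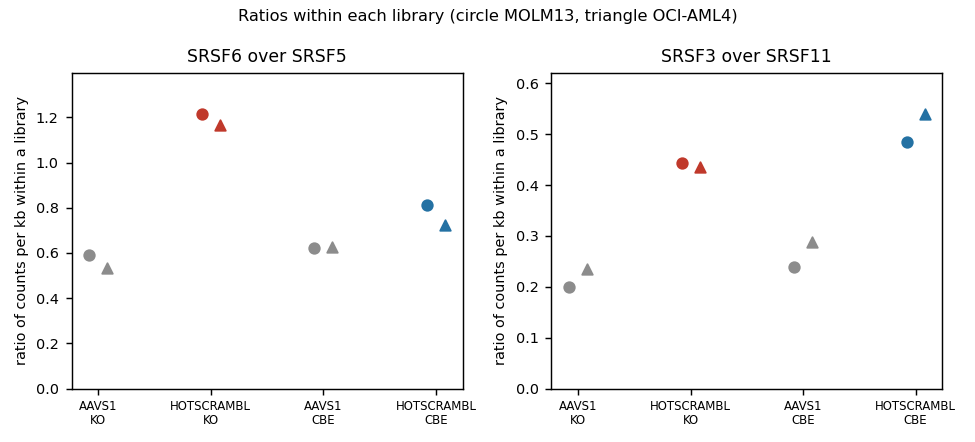
Ratio of counts per kb within each library for SRSF6 over SRSF5 and SRSF3 over SRSF11, with circles for MOLM13 and triangles for OCI-AML4. The HOTSCRAMBL KO libraries stand at 1.21 and 1.17 in the SRSF6 ratio, and the AAVS1 libraries at 0.532 to 0.626. The ratio of SRSF10 over SRSF9, which did not separate, is not plotted.

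SRSF10 (ENSG00000188529, chromosome 1, 23964347 to 23980927), also known as SRp38, which turns into a splicing repressor when dephosphorylated, was the single member whose response differed between the editors in edgeR, whereas DESeq2 also called SRSF5 and SRSF9. It stood at 151 and 130 CPM in AAVS1 KO and at 119 and 113 CPM in HOTSCRAMBL KO. With the base editor it stood at 120 and 127 CPM in the control and at 179 and 188 CPM in HOTSCRAMBL CBE. Both HOTSCRAMBL CBE libraries were the highest of the 8, and both HOTSCRAMBL KO libraries the lowest. It rose by 0.57 with CBE (SE 0.133, edgeR adjusted p 0.00538), and its log2 fold change with KO was −0.28 (SE 0.146, edgeR adjusted p 0.304). The KO value was −0.14 without AAVS1 KO replicate 1 and −0.43 without TMM scaling. The effect of KO minus that of CBE was −0.85 (SE 0.198, 95% interval −1.25 to −0.44, edgeR adjusted p 0.0134), a test in which 3.19% of all genes were called. Leaving out any 1 library ended that call, with adjusted p from 0.0666 (without HOTSCRAMBL CBE replicate 1) to 0.245 (without AAVS1 KO replicate 1) and values from −0.95 to −0.71. The CBE call was lost without any of the 4 CBE libraries, up to an adjusted p of 0.197 without AAVS1 CBE replicate 1.

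SRSF9 (ENSG00000111786, chromosome 12, 120461672 to 120495946), a close relative of SRSF1, had the same pattern of signs without a call. It stood at 67.7 and 81.6 CPM in AAVS1 KO, 54.0 and 67.4 CPM in HOTSCRAMBL KO, 61.9 and 84.3 CPM in AAVS1 CBE, and 91.9 and 104.8 CPM in HOTSCRAMBL CBE. The MOLM13 library was the lower of each group. Its log2 fold changes were −0.30 with KO (SE 0.187, edgeR adjusted p 0.402) and 0.44 with CBE (SE 0.161, edgeR adjusted p 0.0932), and they differed by −0.74 (SE 0.247, edgeR adjusted p 0.116). In DESeq2 the CBE value and the difference passed (adjusted p 0.00919 and 0.00297). Between the line labels it was at −0.30 for MOLM13 over OCI-AML4 (edgeR adjusted p 0.425), and SRSF11 was at 0.19 (0.316). GATC on the opposite strand and NRAV together share 46.7% of its exon bases. Reads were counted without strand and dropped where genes overlap, so the level of SRSF9 is uncertain.

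SRSF1 (ENSG00000136450, chromosome 17, 58000919 to 58007346), the prototype of the family and a proto-oncogene, was 36.8 and 32.2 CPM in AAVS1 KO and 24.9 and 35.6 CPM in HOTSCRAMBL KO. It stood at 39.0 and 42.6 CPM in AAVS1 CBE and at 39.6 and 41.5 CPM in HOTSCRAMBL CBE. The groups overlapped with both editors. Its log2 fold change was −0.18 with KO (95% interval −0.74 to 0.37) and −0.01 with CBE (−0.46 to 0.45), so a change of moderate size in either direction was not detectable here. The KO sign turned to 0.02 without AAVS1 KO replicate 1 and 0.03 without HOTSCRAMBL KO replicate 1. Other genes share 35.1% of its exon bases. Copies of SRSF1, SRSF2, SRSF3, SRSF6, SRSF9 and SRSF10 are annotated as pseudogenes, and reads that fit several positions were left out, so these levels are uncertain to that extent.

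SRSF2 (ENSG00000161547, chromosome 17, 76734115 to 76737333), also known as SC35, stood at 30.8 and 27.9 CPM in AAVS1 KO and at 39.5 and 38.7 CPM in HOTSCRAMBL KO. With the base editor it stood at 28.7 and 29.0 CPM in the control and at 38.0 and 29.2 CPM in HOTSCRAMBL CBE. Groups were apart with both editors, though by little with CBE. Neither value passed, at 0.42 with KO (SE 0.262, edgeR adjusted p 0.410) and 0.24 with CBE (SE 0.242, edgeR adjusted p 0.645). The CBE value was 0.044 without HOTSCRAMBL CBE replicate 1, 0.37 without HOTSCRAMBL CBE replicate 2, 0.12 without AAVS1 CBE replicate 1 and 0.099 without TMM scaling, where the KO value was 0.26. MFSD11 on the opposite strand shares 27.7% of its exon bases.

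Averaged over the editors, 4 of 10 members passed, where 12.3% of all genes did and 37% of those at least as abundant as the lowest member. SRSF3 and SRSF6 were higher and SRSF5 and SRSF11 lower. SRSF6 rose by 0.32 (edgeR adjusted p 0.0205) and lost this call when any of the 8 libraries was left out, with adjusted p from 0.0616 to 0.132. SRSF5 fell by 0.37 (edgeR adjusted p 0.00351), which was lost without AAVS1 CBE replicate 1 (0.0695) or HOTSCRAMBL CBE replicate 1 (0.0549). SRSF4 stood at −0.22 (edgeR adjusted p 0.0657). It passed in DESeq2 (adjusted p 0.00794), in limma-voom (0.0253), and in edgeR without TMM scaling (0.00138) or with a filter at a mean of 10 CPM (0.0383). In edgeR it did not pass with DESeq2 size factors (0.0811), without the filter (0.0981), without the line label (0.180) or in the legacy form (0.0799). Between AAVS1 KO and AAVS1 CBE 0 members and 0% of all genes passed in edgeR, with 0 members and 918 genes at an unadjusted p under 0.05. DESeq2 called 35 genes there and 0 members.

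Genes with the course most like that of a called member were looked up among 9644 genes with a mean of at least 10 CPM, by Pearson's r of log2 CPM over the 8 libraries. These points share their libraries and groups, so the values are a description. SRSF11 was most like PRR12 (r = 0.996), POLD1 (0.991) and PPP1R15A (0.990), and SRSF3 like APOBEC3C (0.988), HNRNPH2 (0.983) and R3HDM1 (0.981). SRSF4 was nearest to KDM5C (0.983), RBM25 (0.980) and GPAT4 (0.963), and SRSF5 to KIF18B (0.988), BRD2 (0.984) and AZU1 (0.983). For SRSF6 the nearest were COTL1 (0.983), FXR2 (0.982) and TRPM4 (0.980). For SRSF10 they were HSP90AB1 (0.972), GPT2 (0.963) and CLNS1A (0.962). No gene was among the nearest 3 of more than 1 member.

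The wider splicing machinery was read from lists of the same kind. Of 11 kinases, importers and exporters of SR proteins, 0 were higher and 1 lower with KO, and 0 higher and 2 lower with CBE. SRPK3, an SR protein kinase, fell with KO by 1.18 on the log2 scale (SE 0.343, edgeR adjusted p 0.0294). That value was −1.88 without HOTSCRAMBL KO replicate 1 and −0.63 without replicate 2, and the call was kept in 1 of 8 fits with a library left out. PRPF4B, a kinase of the tri-snRNP, and the export receptor NXF1 fell with CBE by 0.34 and 0.47. Among 14 SR-related proteins 1 was higher and 5 lower with KO, and 0 higher and 2 lower with CBE. The nuclear speckle scaffold SRRM2 fell with both editors, by 0.55 with KO and 0.31 with CBE, and so did ACIN1, a partner of the exon junction complex, by 0.46 and 0.51. RBM39, a relative of U2AF2, and SREK1 fell by 0.56 and 0.51 with KO and stood at −0.13 and −0.21 with CBE, where neither passed. Over all genes 4.51% were higher and 4.25% lower with KO, and 4.56% higher and 4.27% lower with CBE. In either direction 26.4% of the genes at least as abundant as the lowest member were called with KO, and 28.5% with CBE.

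Of 13 genes for the recognition of splice sites, 0 were higher and 5 lower with KO, and 1 was higher and 3 lower with CBE. The shares called in either direction were 8.76% of all genes with KO and 8.83% with CBE. Among genes at least as abundant as the lowest member they were 26.4% and 28.5%, a cut that was not matched to the levels of these lists. SNRNP70, the defining protein of the U1 particle to which SR proteins bind, fell by 0.64 with KO (SE 0.0853, edgeR adjusted p 4.83e-06) and by 0.87 with CBE (SE 0.0846, edgeR adjusted p 4.06e-08). U2AF2, which reads the polypyrimidine tract, fell by 0.36 and 0.66 with KO and CBE, and the U1-associated LUC7L by 0.87 and 0.49. The U2AF2 value with KO ran from −0.54 without HOTSCRAMBL KO replicate 2 to −0.20 without replicate 1 and was −0.22 without AAVS1 KO replicate 1, and its call was kept in 1 of 8 such fits. SF3A1, a subunit of the U2 particle, rose by 0.81 with CBE and stood at 0.34 with KO (edgeR adjusted p 0.350). Among 11 hnRNP genes, whose proteins often oppose SR proteins, 1 was higher and 4 lower with KO and 3 were higher and 2 lower with CBE. HNRNPA1 rose by 0.34 with KO (edgeR adjusted p 0.0483) and by 0.95 with CBE (edgeR adjusted p 3.58e-07), whereas HNRNPA2B1 fell by 0.57 and 0.33. HNRNPH1 fell by 0.57 with KO, and HNRNPF rose by 0.58 with CBE.

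Nonsense-mediated decay, the pathway that removes transcripts with poison exons, had 0 genes higher and 4 lower of 10 with KO. For this and the next lists, 8.76% of all genes were called with KO and 8.83% with CBE. Among genes at least as abundant as the lowest member the shares were 26.4% and 28.5%. SMG1, its kinase, fell by 0.41 with KO and 0.43 with CBE. UPF2, a core factor of the pathway, and SMG9, a partner of SMG1, fell by 0.46 and 0.57 with KO. In the exon junction complex, 1 of 5 genes was higher and 1 lower with KO and 0 were called with CBE. Its anchor, the helicase EIF4A3, rose by 1.28 with KO (SE 0.178, edgeR adjusted p 1.08e-05) and stood at −0.47 with CBE (edgeR adjusted p 0.165), while CASC3 fell by 0.48 with KO. A list of long non-coding RNAs held MALAT1, NEAT1, KCNQ1OT1, MEG3, SNHG14, TUG1 and NORAD. Of the 6 tested, 1 was higher and 1 lower with KO, and 2 higher and 2 lower with CBE. Neither SRSF8 nor SRSF12, the remaining SRSF genes, was called with either editor. Their group means were low, at 9.13 to 17.4 CPM for SRSF8 and at most 0.836 CPM for SRSF12, where a change is hard to detect. Calls kept when each of the 8 libraries was left out were those of SRRM2, SNRNP70, HNRNPA2B1, HNRNPH1 and EIF4A3 with KO and of ACIN1, SNRNP70, U2AF2 and HNRNPA1 with CBE. The other named calls in these lists were lost without at least 1 library, and that of HNRNPA1 with KO was lost in every such fit. Most of these fits lost the calls of SRPK3, U2AF2 and CASC3 with KO and of PRPF4B, NXF1, LUC7L and HNRNPA2B1 with CBE. The KO value of HNRNPA1 was 0.22 without HOTSCRAMBL KO replicate 2, and without AAVS1 KO replicate 1 UPF2 stood at −0.30 and CASC3 at −0.30. With CBE, SRRM2 stood at −0.20 without HOTSCRAMBL CBE replicate 1 and LUC7L at −0.31 without HOTSCRAMBL CBE replicate 2.

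**Figure D5:**
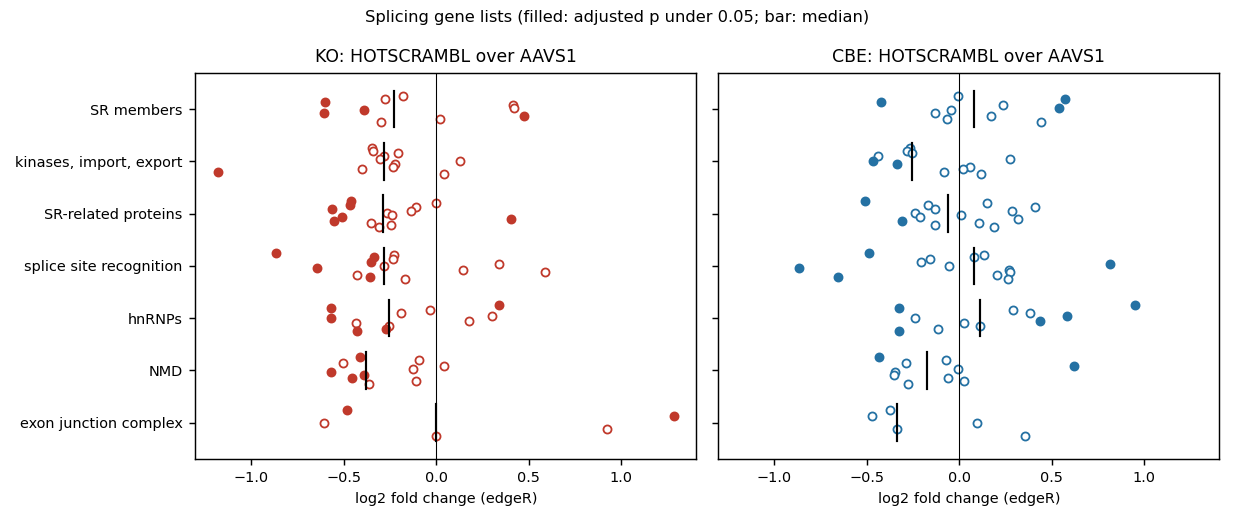
Fitted log2 fold changes, HOTSCRAMBL over AAVS1, of the members and 6 lists of splicing genes, with KO on the left and CBE on the right, filled points for an edgeR adjusted p under 0.05 and a bar at each list's median. The point at 1.28 with KO is EIF4A3, and the lowest filled point with CBE, at −0.87, is SNRNP70.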

How the data were processed

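RNA counts of 8 ChIRP libraries were used, 2 in each of 4 groups taken from the sample titles. Per the file headers, the authors counted reads per gene with featureCounts 2.0.6 and the Ensembl 112 annotation of GRCh38, without strand, with both mates of a pair counted and with reads at several positions or over several genes left out. The deposited values are raw counts, without normalisation. The aligner's settings and duplicate removal are not given in the sources used here. Broken records of 2 genes, TTN and ANK2, were rejoined, 62541 identifiers (99.05%) matched a symbol, and 0 value columns were left unused.

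Tests used edgeR 4.0.16 under R 4.3.3 (TMM scaling, robust quasi-likelihood F-test with bias-adjusted deviances, filterByExpr at a minimum count of 10, 24057 genes), with terms for the 4 groups and the labelled line and 3 residual degrees of freedom. Benjamini-Hochberg adjustment ran over all genes tested, with calls at 0.05. The spread was estimated jointly from all 8 libraries. Levels are CPM after TMM scaling, divided by kilobases of annotated exon for comparison between genes, and log2 values for likeness used CPM plus 0.5. The code was tested on simulated data. Alternatives used DESeq2 1.42.0 and limma 3.58.1 (voom), other scaling, filters and models, and left out each library in turn. Among them the legacy form of edgeR's test was chosen after seeing the data.

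The line label pairs libraries across groups, since same-numbered libraries carry the same line label. Deviations from the group means correlated between groups with r from 0.0154 to 0.0411, and from 0.0418 to 0.121 among the more abundant genes. These correlations are weak, and 119 of 24057 genes differed between the labels. Whether the labels mark distinct lines could not be checked. The chi-square of counts between libraries of 1 group was 36.7 to 44.2 per degree of freedom, well above counting noise, so no library was taken as a repeat. The labels do not state whether cultures were separate beyond the line, so p-values measure the spread between these samples only, which may be technical. Members and gene lists were chosen with earlier results of these data known. Named outside the members were up to 4 genes of each list with the smallest p among those called with KO or CBE, and the 3 genes most like each called member. A result among the genes of nonsense-mediated decay with CBE is not reported here. Promoter sequences came from RefSeq.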

Additional observations from a re-analysis of the deposited data

Results flagged for a closer look

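The effect of HOTSCRAMBL targeting differed between Cas9 and the base editor, by the test of the difference itself, for 3 of the named genes. Over all genes 767 of 24057 (3.19%) were called in this test. Named genes outside the members were picked for a small p with KO or CBE in these data, so their number is a description. SRSF10 had a difference of KO minus CBE of −0.85 (edgeR adjusted p 0.0134). For HNRNPA1 the difference was −0.61 (edgeR adjusted p 0.0216), since it rose less with KO than with CBE. For EIF4A3 it was 1.75 (edgeR adjusted p 1.69e-04), and this call was kept when each of the 8 libraries was left out, with differences from 1.54 to 1.94. With 1 library left out, HNRNPA1 kept its call in 1 of the 8 fits and SRSF10 in 0.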

How the results depend on the processing

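Members called with KO numbered 4, and 2 when the other 4 libraries were kept out of the fit. With CBE they numbered 3, and 0 in the corresponding fit. DESeq2 on the same genes called 3 members for the difference between editors instead of 1, and 2 between the line labels, where limma-voom called 1 instead of 0. The cause of these changes was not tested. Leaving out any 1 library lowered the calls over all genes with KO, with CBE, on average and for the difference. Among the members, calls on average and for the difference fell in every such fit, and those with KO and CBE in some. A fall in calls is thus not particular to the members. These fits assume that the lone library of a group varies like the others.

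The line label is the replicate block. Without the replicate block 2 members were called with KO (SRSF11 and SRSF5), and 503 of all genes against 767 for the difference between editors. In the average SRSF6 then lost its call (edgeR adjusted p 0.0573).

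Scaling by library totals alone moved the median log2 fold change of all genes to −0.17 with KO and −0.15 with CBE, from −0.01 and −0.02. SRSF3 then lost its CBE call (edgeR adjusted p 0.0575), SRSF6 its call in the average (0.263), and SRSF7 stood at −0.14 with KO. Without the filter SRSF1 stood at 0.0012 with CBE.

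With each library left out in turn, SRSF1 ran from −0.47 to 0.032 with KO, from −0.035 to 0.018 with CBE and from −0.46 to 0.042 for the difference. SRSF7 ran from −0.070 to 0.088 with KO and from −0.0038 to 0.15 for the difference. SRSF4 ran from −0.12 to 0.031 with CBE, and SRSF3 from −0.35 to 0.084 for the difference. None of these values was called in edgeR, and with each editor or between editors no other member changed sign.

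Over all genes DESeq2 called 4231 with KO, 3439 with CBE, 4910 on average, 2291 for the difference, 35 between the controls and 778 between the line labels, against 2108, 2124, 2958, 767, 0 and 119 in edgeR. Between the line labels limma-voom called 265, the legacy edgeR test 193 and a filter at a mean of 10 CPM 287. The fits of 4 libraries called 780 and 677. Leaving out 1 library left 677 to 1674 calls with KO and 586 to 1885 with CBE. Ordered by CPM without exon length, 2 members kept the rank they have per kb.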
